A study of Mus musculus with 12 samples.

Results

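The neuregulin and Erbb genes examined here are 6 genes, the ligands Nrg1 and Hbegf and the receptors Egfr, Erbb2, Erbb3 and Erbb4, found by their symbols among the 26190 rows of the expression table. RNA-seq libraries were made in triplicate from 4 groups of mouse samples labelled C57BL/6: atria and ventricles of wild-type hearts at day E11.5 of embryonic life (E11.5H), and the parts resembling atria and ventricles that were cut from heart organoids (HOs) at day 13 of culture, called atrium-like and ventricle-like. HOs are beating structures grown from wild-type mouse embryonic stem cells on a laminin-entactin gel, in medium with FGF4 throughout and with BMP4, BIO and LIF in the later days. Each value comes from a whole dissected piece, so fewer cells of a type and less RNA per cell cannot be told apart.

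Neuregulin 1 is made by the endocardium, the inner lining of the heart, and acts on the muscle cells beneath it. It binds Erbb4 or Erbb3 through an EGF-like domain, and the bound receptor pairs with Erbb2, which has no ligand of its own and is an active kinase. Mice without Nrg1, Erbb2 or Erbb4 fail to form trabeculae, the muscular ridges of the ventricle wall, whereas Erbb3 is needed in the mesenchyme of the endocardial cushions. Hbegf binds Egfr and Erbb4, and Egfr and Hbegf are needed for normal heart valves.

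The table was made on the mouse genome GRCm38/mm10, in which the receptor genes lie on 3 chromosomes. Erbb4 is on chromosome 1 from 68032187 to 69108059, Erbb3 on chromosome 10 from 128567523 to 128589635, Egfr on chromosome 11 from 16752203 to 16913907 and Erbb2 on chromosome 11 from 98412484 to 98437716. The Nrg1 row runs on chromosome 8 from 31814551 to 32009504, whereas RefSeq places the gene from 31807452 to 32891609 on the minus strand, so transcript starts beyond 32009504 lie outside the row and their share was not tested. An antisense gene, Gm26578, shares 482 exonic bases with Nrg1 in the GENCODE annotation, and the use of strand in counting is not given in the sources used here, so their reads cannot be told apart.

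The part of Nrg1 that binds the receptors is shown because it tells apart 2 forms of the ligand that a count per gene adds together. Both forms below are coding sequence on the minus strand of GRCm38 as annotated by GENCODE, joined over the introns, with the 6 cysteine codons of the EGF-like domain in capitals. The first spans chr8:31837698-31849398 and was found in 7 of the 11 coding transcripts read, which leave out those annotated without their coding start. The second spans chr8:31838298-31849398 and was found in the other 4.
Nrg1 form in 7 transcripts: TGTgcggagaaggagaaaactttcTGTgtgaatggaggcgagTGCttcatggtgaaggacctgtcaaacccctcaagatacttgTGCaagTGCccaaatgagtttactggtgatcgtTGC
Nrg1 form in 4 transcripts: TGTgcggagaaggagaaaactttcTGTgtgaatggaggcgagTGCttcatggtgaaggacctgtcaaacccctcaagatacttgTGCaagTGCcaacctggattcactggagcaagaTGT
The forms share their first 94 of 120 bases and part after the fifth cysteine codon, so the Nrg1 values reported here are the sum of both.

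The receptors also differ in bases of the catalytic loop of the kinase. Erbb3 is a receptor with little kinase activity of its own. The loop is shown as 8 codons of coding sequence, with the sixth in capitals, at chr11:16904338-16904361 for Egfr, chr11:98434247-98434270 for Erbb2, chr10:128572533-128572556 for Erbb3 and chr1:68080739-68080762 for Erbb4. Egfr and Erbb2 lie on the plus strand, and Erbb3 and Erbb4 on the minus strand.
Egfr: caccgtgacttggcaGCCaggaat
Erbb2: cacagggacctagctGCCcgaaac
Erbb3: catagggaccttgcgCTCcggaat
Erbb4: catcgggatctggcaGCCcgcaat
The sixth codon was identical in Egfr, Erbb2 and Erbb4. Counted from 1 at the first base of the loop, Erbb3 differed from Egfr there by G16C and C17T. Over the whole loop, Erbb2, Erbb3 and Erbb4 differed from Egfr at 8, 9 and 6 bases. The aspartate codon of the loop was gac in Egfr, Erbb2 and Erbb3 and gat in Erbb4. Whether these differences bear on kinase activity was not tested.

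Each library held between 23971258 and 30540993 fragments on genes. Levels are FPKM values, that is, fragments scaled to the length of the transcript and the depth of the library, so that levels can be compared between genes. Fold changes are on a log2 scale and were tested on the fragment numbers with edgeR's quasi-likelihood test over all genes that passed its filter for low counts, and all 6 genes passed in each comparison. The threshold for a call was 0.05 for the p-value after Benjamini-Hochberg adjustment together with a log2 fold change over 1 in size, and the standard errors (SE) and 95% intervals come from the same fits. The smallest member counts were 27 fragments for Nrg1 and 40 for Erbb4, each in an atrium-like library. Within E11.5H, 8 of 10 atrial genes and 0 of 10 ventricular genes were called higher in atria, and 10 of 10 ventricular genes were called lower there, beside 4.9% of all genes called. These lists were chosen with earlier results of these data known, so this split is no independent check of the labels. Between HO parts none of these lists' genes was called, and 9 of 10 atrial and 7 of 10 ventricular genes lay on the lower side in atrium-like parts. General cardiomyocyte genes lay lower there as well, in 16 of 16, with a median log2 fold change of -1.51. The medians of the atrial and ventricular lists were -0.99 and -0.72. By these lists, chamber identity in HO parts cannot be told apart from cardiomyocyte content. The summed CPM (counts scaled to library size) of 16 cardiomyocyte genes reached 25934 to 33540 in E11.5H but 1057 to 2712 in the atrium-like and 3805 to 8465 in the ventricle-like parts. In ventricle replicate 3 of E11.5H, erythroid genes stood apart at 50962 summed CPM, against 5229 to 13353 in the other embryonic libraries.

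**Figure D1:**
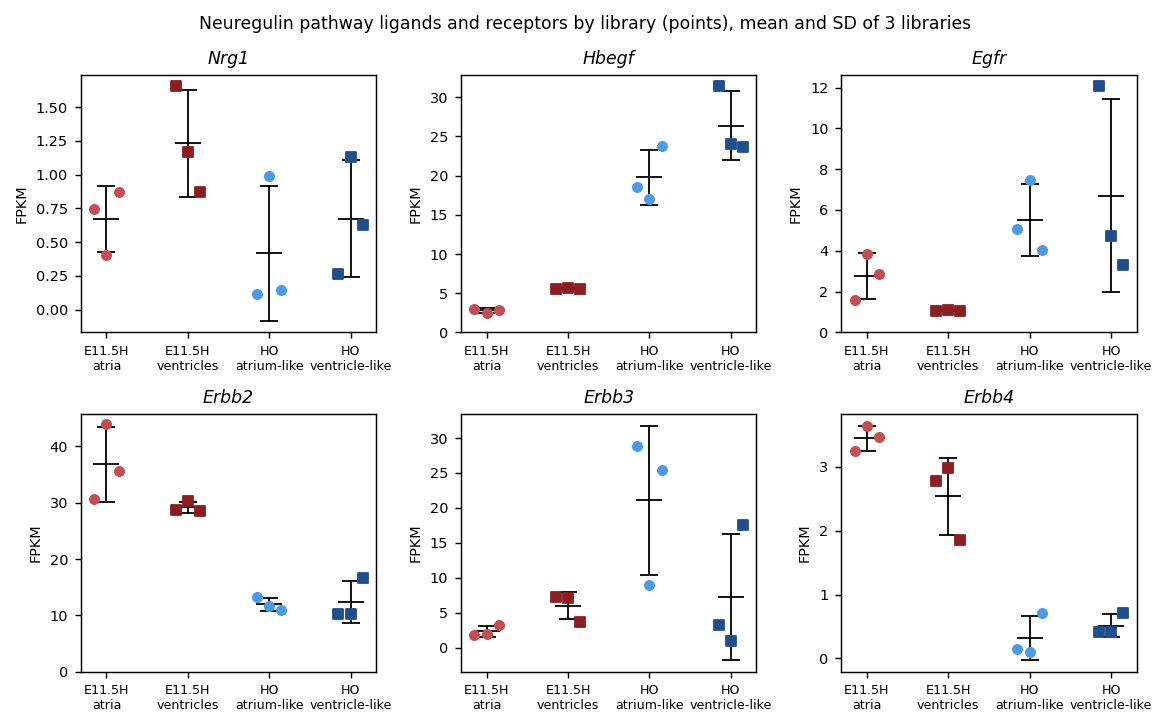
FPKM of the 6 genes in each library (points), by group, with the mean and SD of 3 libraries (bars). Hbegf is higher in all 6 HO libraries than in all 6 E11.5H libraries, Erbb2 and Erbb4 are lower in all 6, and the replicates of HOs lie far apart for Nrg1, Egfr and Erbb3.

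By FPKM, Nrg1 was the scarcer of the ligands in each of the 12 libraries. FPKM divides by a transcript length of 8438 bases for Nrg1 and 2375 bases for Hbegf. By fragments, Nrg1 was ahead of Hbegf in atrial replicate 3 of E11.5H (238.5 against 225) and in ventricle replicate 1 (448 against 421). Elsewhere Nrg1 was behind by fragments as well. The atria of E11.5H held 0.747, 0.401 and 0.871 FPKM in replicates 1 to 3, and the ventricles held 1.66, 1.17 and 0.871 FPKM. The means were 0.673 ± 0.243 (SD, n = 3) and 1.23 ± 0.396 (SD, n = 3) FPKM. The ventricles lay on the higher side, but the lowest ventricle library and the highest atrial library had the same value to 3 digits and the gene did not pass the test (log2 fold change of atria against ventricles -0.93, SE 0.32, edgeR adjusted p = 0.0854).

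In HOs, Nrg1 differed more between replicates than between parts. Atrium-like parts held 0.112, 0.993 and 0.146 FPKM, and ventricle-like parts held 0.264, 1.13 and 0.625 FPKM. The highest value of each part came from its replicate 2, and the ranges of the parts overlapped with each other and with E11.5H. Against the matching chamber, the log2 fold change was -0.63 in atrium-like parts (95% interval -2.68 to 1.42, edgeR adjusted p = 0.604) and -0.97 in ventricle-like parts (95% interval -2.31 to 0.36, edgeR adjusted p = 0.225). Without atrium-like replicate 2, the former was -2.14 and passed (edgeR adjusted p = 0.0224).

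In each HO part, the library with the highest Nrg1 also held the most RNA of nerve and skeletal muscle genes. The summed level of 9 neural crest and glia genes was 68.0 CPM in atrium-like replicate 2 and 116 CPM in ventricle-like replicate 2. The other HO libraries held 0.834 to 30.4 CPM. Among them, ventricle-like replicate 1 held 30.4 CPM with Nrg1 at 0.264 FPKM, and ventricle-like replicate 3 held 2.69 CPM with Nrg1 at 0.625 FPKM. In E11.5H the list summed to 11.9 to 20.3 CPM in atria and to 4.74 to 9.22 CPM in ventricles, the chamber with the higher Nrg1 mean. Gfra3 of this list was at 0 in all HO libraries. The 8 skeletal muscle genes summed to 109 CPM in atrium-like replicate 2 and 139 CPM in ventricle-like replicate 2. They summed to at most 1.38 CPM in the other HO libraries and to 0.270 to 30.02 CPM in E11.5H. The 12 endothelial and endocardial genes, which mark the known cardiac source of Nrg1, summed to 969 to 1128 CPM in E11.5H and to 55.4 to 399 CPM in HOs, with the highest HO values in the same libraries. The part of any of these cells in the Nrg1 values was not tested.

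Hbegf, which is made as a membrane protein and shed as a soluble growth factor, lies on chromosome 18 from 36504927 to 36515805. Of the 2 ligands it was the one called between HOs and hearts. In E11.5H it stood at 3.05, 2.44 and 2.92 FPKM in atria and at 5.53, 5.67 and 5.57 FPKM in ventricles. These groups did not overlap, and the atria were lower, with a log2 fold change of -1.07 (SE 0.18, edgeR adjusted p = 0.00308). The call rests near the fold limit, since without atrial replicate 2 the log2 fold change was -0.97.

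In HOs, Hbegf reached 18.6, 17.0 and 23.8 FPKM in atrium-like parts and 31.5, 23.98 and 23.7 FPKM in ventricle-like parts. Every HO library lay above every E11.5H library. The log2 fold change was 3.001 in atrium-like parts against atria (SE 0.25, edgeR adjusted p = 0.00162) and 2.15 in ventricle-like parts against ventricles (SE 0.17, edgeR adjusted p = 0.00148). Between the HO parts the ranges overlapped and the log2 fold change was -0.23 (95% interval -0.84 to 0.39, edgeR adjusted p = 0.821).

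The balance of the 2 ligands differed between tissues. Nrg1 made up 14.1 to 22.98% of the summed FPKM of Nrg1 and Hbegf in atria of E11.5H and 13.5 to 23.05% in ventricles. In HOs it made up 0.599 to 5.52% in atrium-like parts and 0.833 to 4.49% in ventricle-like parts. Expressed as a ratio of FPKM, Hbegf exceeded Nrg1 by 3.34 to 6.40 times in E11.5H and by 17.1 to 166 times in HOs. The size of these shares and ratios rests on the transcript lengths used for FPKM, which are the same in every library. Between chambers the ranges of the share overlapped in both tissues (exact permutation test, two-sided, p = 0.8 in E11.5H and p = 0.8 in HOs, n = 3 per group, where p cannot go below 0.1).

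Of the receptors, Erbb2, the shared partner of the family, was the most abundant in every E11.5H library. Its level was 30.7, 44.0 and 35.7 FPKM in atria and 28.8, 30.3 and 28.4 FPKM in ventricles. The atria lay just above the ventricles without overlap, but the gene did not pass the test (log2 fold change 0.26, SE 0.11, edgeR adjusted p = 0.142). HOs held 13.2, 11.7 and 10.9 FPKM in atrium-like parts and 10.2, 10.2 and 16.6 FPKM in ventricle-like parts. All HO libraries were below all E11.5H libraries, with a log2 fold change of -1.43 for the atrial comparison (SE 0.21, edgeR adjusted p = 0.00606) and -1.33 for the ventricular comparison (SE 0.21, edgeR adjusted p = 0.00841).

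The Erbb2 calls depend on how fragments were divided with a neighbour. Mien1 lies on the opposite strand, overlaps Erbb2 by 9 bases at its end, and its row lists the same 2 RefSeq transcripts as the Erbb2 row. The counts of the rows were fractional, but their sum was a whole or half-whole number of fragments in 12 of 12 libraries (tolerance 0.001), so the authors' counting had split fragments between them. Erbb2 received 73.0 to 82.9% of the sum in E11.5H and 36.6 to 48.2% in HOs. With both rows added as 1 gene, the log2 fold change shrank to -0.48 in atrium-like parts (edgeR adjusted p = 0.190) and to -0.60 in ventricle-like parts (edgeR adjusted p = 0.0365), and neither was called. How much of the Erbb2 difference belongs to Mien1 cannot be told apart from these counts.

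Erbb4, the neuregulin receptor of cardiomyocytes, had the lowest log2 fold changes of the 4 receptors in both HO parts. It stood at 3.24, 3.64 and 3.45 FPKM in atria and at 2.78, 2.97 and 1.85 FPKM in ventricles of E11.5H. The atria were above the ventricles without overlap, but the difference did not pass (log2 fold change 0.38, SE 0.15, edgeR adjusted p = 0.134). The lowest ventricle value came from replicate 3, the library with the highest erythroid counts. HOs held 0.145, 0.0980 and 0.712 FPKM in atrium-like parts and 0.409, 0.409 and 0.717 FPKM in ventricle-like parts, so the highest HO library was below the lowest E11.5H library. The log2 fold change was -3.25 for atrium-like parts (SE 0.78, edgeR adjusted p = 0.0241) and -2.39 for ventricle-like parts (SE 0.32, edgeR adjusted p = 0.00496).

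The atrial call for Erbb4 lacked margin, since it was lost without any 1 of the atrial replicates or without atrium-like replicate 1 (edgeR adjusted p = 0.0501 to 0.0760), at log2 fold changes of -3.28 to -2.95. Over all genes, leaving out 1 atrial replicate cut the calls from 3821 to between 1662 and 1726. Cardiomyocyte genes, like Erbb4, were lower in HOs: 16 of 16 were called lower in atrium-like parts and 14 of 16 in ventricle-like parts. Their median log2 fold changes were -3.51 and -2.36. Of all genes, 24.8% and 18.9% were called in either direction. Set relative to the cardiomyocyte genes, the log2 fold change of Erbb4 was 0.066 in atrium-like and -0.078 in ventricle-like parts (edgeR adjusted p = 0.926 and 0.871). That scaling divides all genes of a library by the same factor and put the median of all genes at 3.69 and 2.55. Library by library, Erbb4 and the cardiomyocyte sum did not always move together. Atrium-like replicates 2 and 3 had cardiomyocyte sums of 2708 and 2712 CPM but Erbb4 at 0.0980 and 0.712 FPKM, and within E11.5H the cardiomyocyte sum was higher in ventricles and Erbb4 in atria. Leaving out 1 library at a time put the atrium-like log2 fold change between -4.63, without atrium-like replicate 3, and -2.81, without atrium-like replicate 2. On the cardiomyocyte scale Erbb2 stood at 2.31 and 1.01, which, as without that scaling, was below the median of all genes. Whether cardiomyocyte content accounts for the Erbb4 values was not tested.

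Erbb3, which binds neuregulin and signals through its partners, was lower in atria than in ventricles of E11.5H. Its level was 1.84, 1.88 and 3.27 FPKM in atria and 7.24, 7.08 and 3.72 FPKM in ventricles. The groups did not overlap, with a log2 fold change of -1.43 (SE 0.27, edgeR adjusted p = 0.00661). Without ventricle replicate 3 it was -1.67 (edgeR adjusted p = 0.00154).

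In HOs, Erbb3 stood at 28.9, 8.96 and 25.5 FPKM in atrium-like parts and at 3.19, 0.954 and 17.6 FPKM in ventricle-like parts. The high libraries were atrium-like replicates 1 and 3 and ventricle-like replicate 3, and the ranges of the parts overlapped. Between parts the log2 fold change was 1.79 with a 95% interval of -0.87 to 4.46 (edgeR adjusted p = 0.750). Atrium-like parts were above atria in every library (log2 fold change 3.41, SE 0.57, edgeR adjusted p = 0.00853). Ventricle-like parts had libraries on either side of the ventricles (log2 fold change 0.19, 95% interval -2.15 to 2.53, edgeR adjusted p = 0.899), and without ventricle-like replicate 3 the value turned to -1.63 (edgeR adjusted p = 0.0794).

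Among the 6 HO libraries, Erbb3 followed the same order as a list of 12 epithelial and gut genes. That list summed to 8764, 2421 and 8185 CPM in atrium-like replicates 1 to 3 and to 1970, 1215 and 5567 CPM in ventricle-like replicates 1 to 3. In E11.5H it summed to 132 to 174 CPM, of which keratins made up most, while Foxa2 and Cdx2 were at 0 in all 3 ventricle libraries. In atrium-like parts 12 of 12 of these genes were called higher than in atria, and in ventricle-like parts 10 of 11 tested were called higher than in ventricles. Between E11.5H chambers 5 of the 12 passed the filter for low counts. The rest entered the HO comparisons through the HO libraries, where they are high, so these counts are no independent evidence. Of all genes, 24.8% and 18.9% were called in either direction. Epcam, an adhesion protein of epithelia, rose from 0.614 CPM or less in atria to between 255 and 1724 CPM in atrium-like parts. Genes of hepatocytes and visceral endoderm followed the same order among the HO libraries, from 55.3 to 28478 summed CPM, against 5.82 to 11.8 in E11.5H. The part of these cells in the Erbb3 values was not tested.

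Egfr, the receptor of Hbegf and most other EGF-like ligands, was higher in atria than in ventricles of E11.5H. The atria held 1.59, 3.84 and 2.85 FPKM and the ventricles 1.04, 1.12 and 1.06 FPKM. The groups did not overlap (log2 fold change 1.29, SE 0.27, edgeR adjusted p = 0.0112), but the atrial values were spread, and without atrial replicate 2 the log2 fold change was 0.98 and not called (edgeR adjusted p = 0.0502). HOs held 5.09, 7.46 and 4.02 FPKM in atrium-like parts and 12.1, 4.73 and 3.31 FPKM in ventricle-like parts. Ventricle-like parts were above ventricles in every library, with a log2 fold change of 2.56 (SE 0.52, edgeR adjusted p = 0.0163). Atrium-like parts also lay above atria without overlap, but missed the threshold (log2 fold change 1.17, SE 0.36, edgeR adjusted p = 0.0507). By DESeq2 the atrium-like difference was called (log2 fold change 1.18, DESeq2 adjusted p = 0.0115). The ventricular call was lost without any 1 ventricle replicate (edgeR adjusted p = 0.0742 to 0.0788), at log2 fold changes of 2.51 to 2.57. Without ventricle-like replicate 1, the library at 12.1 FPKM, the call held at a lower log2 fold change of 1.78 (edgeR adjusted p = 0.0124). Over all genes, leaving out 1 ventricle replicate cut the calls from 2859 to between 1116 and 1212.

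The highest Egfr libraries, ventricle-like replicate 1 and atrium-like replicate 2, also had the highest summed level of 10 mesenchyme genes. That list, with collagens and Pdgfra, summed to 30598 CPM in the former and 17839 CPM in the latter, against 3277 to 12572 CPM in the other HO libraries. It summed to 4250 to 5635 CPM in atria and 3254 to 3890 CPM in ventricles of E11.5H. The 10 macrophage genes summed to 69.8 to 133 CPM in atria, 28.8 to 37.3 CPM in ventricles and 146 to 733 CPM in HOs. The part of mesenchyme or macrophages in the Egfr values was not tested.

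**Figure D2:**
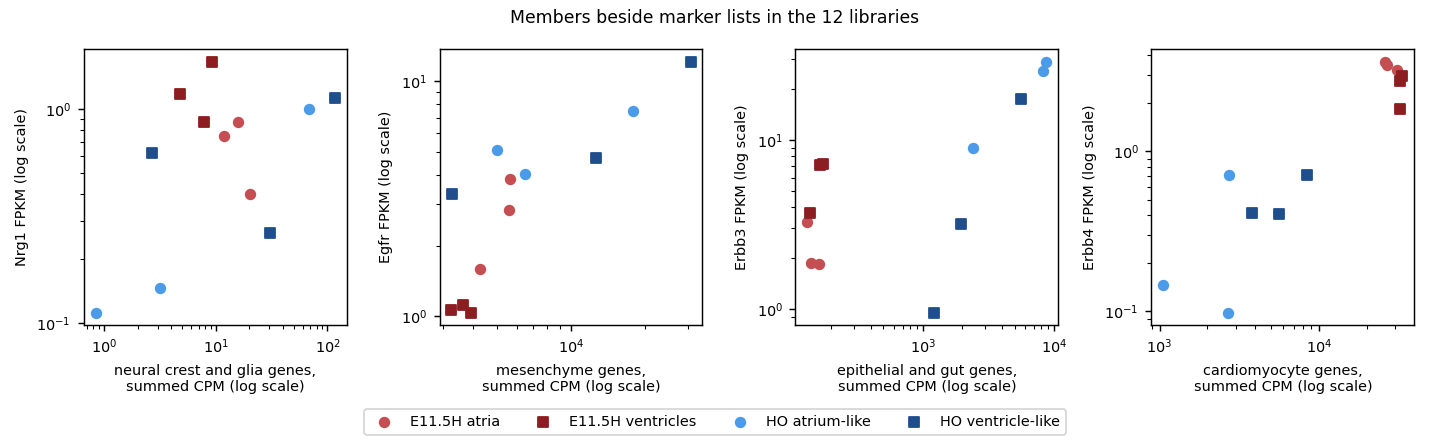
FPKM of 4 of the genes (vertical, log scale) against the summed CPM of a marker list (horizontal, log scale) in the 12 libraries, coloured by group. In HOs, Erbb3 rises with the epithelial list from 0.954 to 28.9 FPKM and the highest Egfr library, at 12.1 FPKM, has the highest mesenchyme sum, while the HO libraries have both the lowest Erbb4 and the lowest cardiomyocyte sums.

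With these changes, the make-up of the receptor transcripts differed between hearts and HOs. In atria of E11.5H, Erbb2 made up 81.2 ± 2.01% (SD, n = 3) of the summed FPKM of the 4 receptors, Erbb4 7.70 ± 0.927%, Egfr 5.91 ± 1.51% and Erbb3 5.22 ± 1.87%. In ventricles Erbb2 made up 75.5 ± 4.89%, Erbb3 15.3 ± 4.09%, Erbb4 6.48 ± 1.04% and Egfr 2.78 ± 0.224%. Erbb3 had the second largest share in all 3 ventricle libraries, whereas in atria Erbb3 and Egfr lay within their spread of each other, with Egfr lowest in replicates 1 and 3 and Erbb3 in replicate 2.

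In atrium-like parts, with fragments divided as deposited, Erbb3 took the largest mean share, at 51.6 ± 17.2% (SD, n = 3), ahead of Erbb2 at 31.9 ± 8.20% and Egfr at 15.7 ± 9.38%, although Erbb2 led in replicate 2. In ventricle-like parts Erbb2 made up 48.5 ± 12.3%, Egfr 28.1 ± 19.0% and Erbb3 21.4 ± 21.5%. Erbb4 came to 0.795 ± 0.811% and 1.99 ± 0.478% in these parts. The ratio of Erbb3 to Erbb4 was 0.516 to 0.945 in atria, 2.01 to 2.61 in ventricles, 35.8 to 199 in atrium-like parts and 2.33 to 24.5 in ventricle-like parts. The split of fragments between Erbb2 and Mien1 enters every one of these shares. With every fragment of both given to Erbb2, an upper bound for it, Erbb2 had the largest share in all 12 libraries. Its share then was 52.8 ± 6.56% in atrium-like parts, ahead of Erbb3 at 35.9 ± 12.4% (SD, n = 3), so the order of these receptors depends on the split. Between chambers, exact permutation tests over 3 against 3 libraries cannot go below p = 0.1, and the 10 tests of the receptor and ligand shares gave p = 0.1 to 0.8 (0.333 to 0.8 after Benjamini-Hochberg adjustment).

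**Figure D3:**
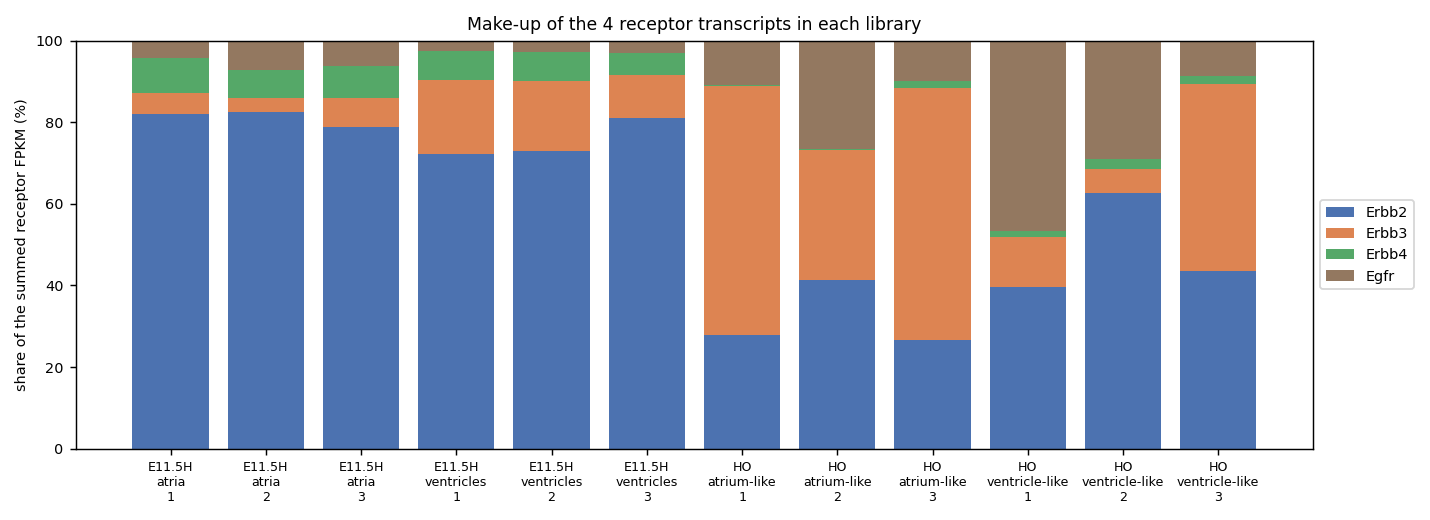
Share of each receptor in the summed FPKM of Egfr, Erbb2, Erbb3 and Erbb4 (vertical, percent) in each of the 12 libraries. Erbb2 makes up 72.2% or more in every E11.5H library, Erbb3 takes 61.1% and 61.9% in atrium-like replicates 1 and 3, and Egfr 46.6% in ventricle-like replicate 1.

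Counted over the comparisons, 3 of 6 genes were called between the E11.5H chambers, where 4.9% of all tested genes were called, and 5 of 6 did not overlap, against 33.1% of all tested genes. Between HO parts 0 of 6 were called by edgeR and 0% of all genes, and 0 of 6 by DESeq2 (59 of 15703 genes). An unadjusted edgeR p under 0.05 was reached by 0 of 6, against 889 of 15703 genes, and 0 of 6 did not overlap, against 13.3% of all genes. In atrium-like parts against atria 4 of 6 were called (24.8% of all genes), or 5 of 6 by DESeq2 (4794 of 15418 genes), and 5 of 6 did not overlap (54.4%). In ventricle-like parts against ventricles 4 of 6 were called (18.9% of all genes) and 4 of 6 did not overlap (50.7%). Both edgeR counts of 4 called include Erbb2, which was called in neither part with the Erbb2 and Mien1 rows added. The HO comparisons use the same HO libraries as the comparison between parts and the same E11.5H libraries as the comparison between chambers.

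The difference of the chamber effect between HOs and E11.5H was tested as an interaction over all 12 libraries. None of the 6 genes was called by edgeR or DESeq2, beside 0.152% of all genes by edgeR and 444 of 16494 by DESeq2. An unadjusted edgeR p under 0.05 was reached by 2 of the 6 and by 1928 of all 16494 genes. For Erbb3, lower in atria of E11.5H but with the higher mean in atrium-like parts, the interaction was 3.18 on the log2 scale (95% interval 0.43 to 5.94, edgeR adjusted p = 0.381). For Hbegf it was 0.84 (95% interval 0.21 to 1.46, edgeR adjusted p = 0.317). For Egfr it was -1.41 (95% interval -2.84 to 0.03, edgeR adjusted p = 0.432). The intervals between HO parts were wide, at -2.95 to 1.68 for Nrg1, -1.41 to 1.15 for Egfr, -0.54 to 0.84 for Erbb2 and -2.55 to 1.56 for Erbb4.

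**Figure D4:**
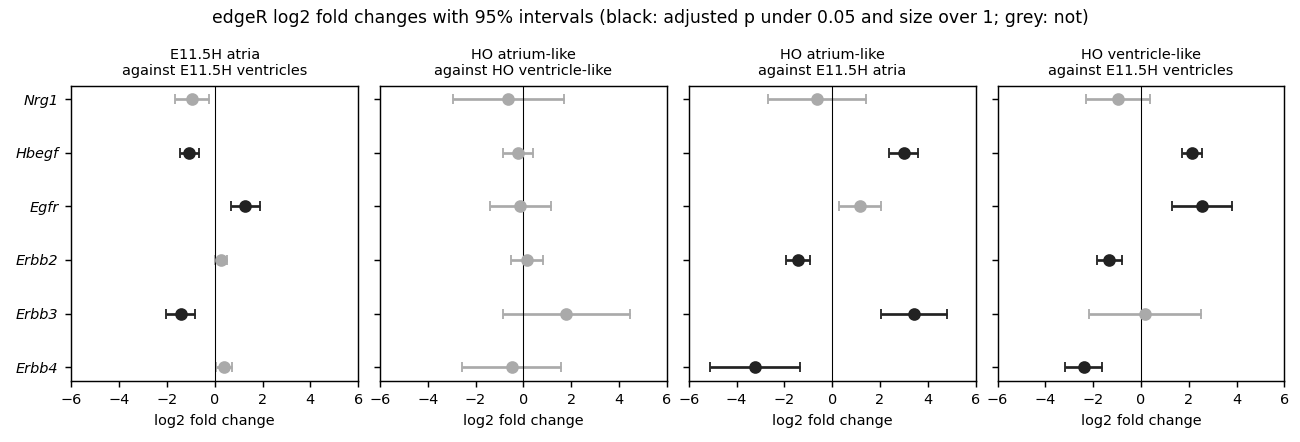
Log2 fold changes of the 6 genes with 95% intervals from edgeR (horizontal) in 4 comparisons, black where called and grey where not. The intervals between HO parts are wide, reaching from -0.87 to 4.46 for Erbb3, and Hbegf, Erbb2 and Erbb4 are called in both comparisons of HOs with hearts.

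Ordered by mean FPKM, Hbegf and Egfr were highest in ventricle-like parts, followed by atrium-like parts, and these neighbours overlapped. For Hbegf the next were ventricles and then atria, and for Egfr atria and then ventricles, and none of these neighbours overlapped with the group above it. The ventricle-like parts and the atria, which are not neighbours in the order, did overlap for Egfr, at 3.31 against 3.84 FPKM. Erbb2 and Erbb4 ran from atria to ventricles to ventricle-like and atrium-like parts, and only the last pair overlapped. Erbb3 ran from atrium-like to ventricle-like parts to ventricles to atria, and only the last pair did not overlap. For Nrg1, which ran from ventricles to atria to ventricle-like and atrium-like parts, every pair of neighbours overlapped.

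The other ligands of the EGF family were measured on a list of 9 genes. In E11.5H, 5 were tested and 1 was called, beside 4.9% of all genes. It was Tgfa, a ligand of Egfr, at 0.886 ± 0.0497 FPKM (SD, n = 3) in atria and 2.96 ± 0.703 FPKM in ventricles (log2 fold change -1.80, SE 0.22, edgeR adjusted p = 0.000478). The neuregulins Nrg2 and Nrg4 had group means of 0.153 to 0.448 FPKM, and Nrg3 was at 0 or 1 fragment in 10 of 12 libraries.

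Amphiregulin, encoded by Areg and a ligand of Egfr, showed the largest difference of the list between HOs and hearts. It had 0.233, 0.220 and 0.583 FPKM in atria and 0.154, 0.127 and 0.279 FPKM in ventricles, against 28.3, 27.1 and 32.2 FPKM in atrium-like and 11.4, 28.5 and 17.7 FPKM in ventricle-like parts. Every HO library was far above every E11.5H library, with log2 fold changes of 6.58 (SE 0.49, edgeR adjusted p = 0.00133) and 6.56 (SE 0.55, edgeR adjusted p = 0.00164). Btc, which binds Egfr and Erbb4, was also called higher in both parts, with log2 fold changes of 2.79 and 3.32 (edgeR adjusted p = 0.0171 and 0.00680). Tgfa was called higher in atrium-like parts (3.10, edgeR adjusted p = 0.00514) and Ereg in ventricle-like parts (4.69, edgeR adjusted p = 0.0472). In all, 3 of 6 tested ligands were called higher in atrium-like parts and 3 of 7 in ventricle-like parts, and none lower. Of all genes, 24.8% and 18.9% were called in either direction there. The median log2 fold change of the list was 2.17 and 1.10, against 0.062 and 0.093 over all genes tested.

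Of 10 genes that process these ligands, 0 were called between E11.5H chambers. Cd9, a tetraspanin that associates with pro-Hbegf, was called higher in both HO parts, at 392 ± 123 and 274 ± 156 FPKM (SD, n = 3) against 29.8 ± 2.75 FPKM in atria and 48.7 ± 10.8 FPKM in ventricles (log2 fold changes 3.88 and 2.39, edgeR adjusted p = 0.00123 and 0.0126). Rhbdf2, which serves the maturation of the sheddase Adam17, was called higher in atrium-like parts (1.58, edgeR adjusted p = 0.00567), and the protease Bace1 in ventricle-like parts (1.03, edgeR adjusted p = 0.0118). Adam17 itself had log2 fold changes of 0.18 and 0.13 (edgeR adjusted p = 0.639 and 0.642). Of 14 adaptors and kinases, 0 were called between E11.5H chambers, 2 were called higher in atrium-like parts (Map2k1 and Mapk3, at 1.16 and 1.11, edgeR adjusted p = 0.0107 and 0.0309) and 1 in ventricle-like parts (Pik3r1, at 1.72, edgeR adjusted p = 0.0270). With 2 of 10 processing genes called in each part, neither list had a larger share called than the 24.8% of all genes in atrium-like parts, and 2 of 10 was near the 18.9% in ventricle-like parts.

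Of 13 inhibitors, 2 were called lower in atria than in ventricles of E11.5H, where 4.9% of all genes were called in either direction. These were Lrig1, which promotes the breakdown of Erbb receptors (log2 fold change -1.24, SE 0.13, edgeR adjusted p = 0.000159), and Spry4, an antagonist of receptor tyrosine kinase signalling (log2 fold change -1.71, SE 0.14, edgeR adjusted p = 4.3e-05). Errfi1, a feedback inhibitor that binds the kinase domains of Egfr and Erbb2, was called higher in both HO parts. It rose from 7.55 ± 1.49 FPKM (SD, n = 3) in atria to 47.9 ± 19.9 FPKM in atrium-like parts and from 7.40 ± 1.10 FPKM in ventricles to 61.7 ± 38.4 FPKM in ventricle-like parts (log2 fold changes 2.81 and 2.96, edgeR adjusted p = 0.00223 and 0.00848). In addition, Spry4 was called higher in atrium-like parts (2.13, edgeR adjusted p = 0.0292) and Spry1 in ventricle-like parts (1.18, edgeR adjusted p = 0.00780). The 2 of 13 called in each part were a smaller share than among all genes.

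Genes that respond to ERK, the kinase at the end of the pathway and of FGF signalling alike, formed a list of 12. Between E11.5H chambers 2 of 11 were called, and both were lower in atria: Egr1 (log2 fold change -1.49, SE 0.16, edgeR adjusted p = 0.000237) and Etv4 (log2 fold change -1.33, SE 0.28, edgeR adjusted p = 0.00993). The list's median was -0.64 there, against 0.014 over all genes, of which 4.9% were called. In HOs 7 of 12 were called higher in atrium-like parts and 7 of 11 in ventricle-like parts, and 1 was called lower in each, the cyclin Ccnd1 (-1.77 and -2.14, edgeR adjusted p = 0.00523 and 0.00475). Of all genes, 24.8% and 18.9% were called in either direction in these comparisons. The immediate early gene Fos had 0.482 to 2.56 FPKM in atria and 3.29 to 4.39 FPKM in ventricles, against 29.0 to 50.6 FPKM in HOs (log2 fold changes 4.80 and 3.31, edgeR adjusted p = 0.00531 and 0.00136). Egr1 had log2 fold changes of 4.43 and 3.30 (edgeR adjusted p = 0.00145 and 0.00115), Ier3 of 3.61 and 3.48 (edgeR adjusted p = 0.00641 and 0.00232), and the ERK phosphatase Dusp5 of 2.43 and 1.95 (edgeR adjusted p = 0.0122 and 0.00289). The list's medians were 2.17 and 1.95, against 0.062 and 0.093 over all genes. Dusp6, Etv4 and Etv5 were not called in either HO part, with log2 fold changes of -0.69 to 1.08.

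**Figure D5:**
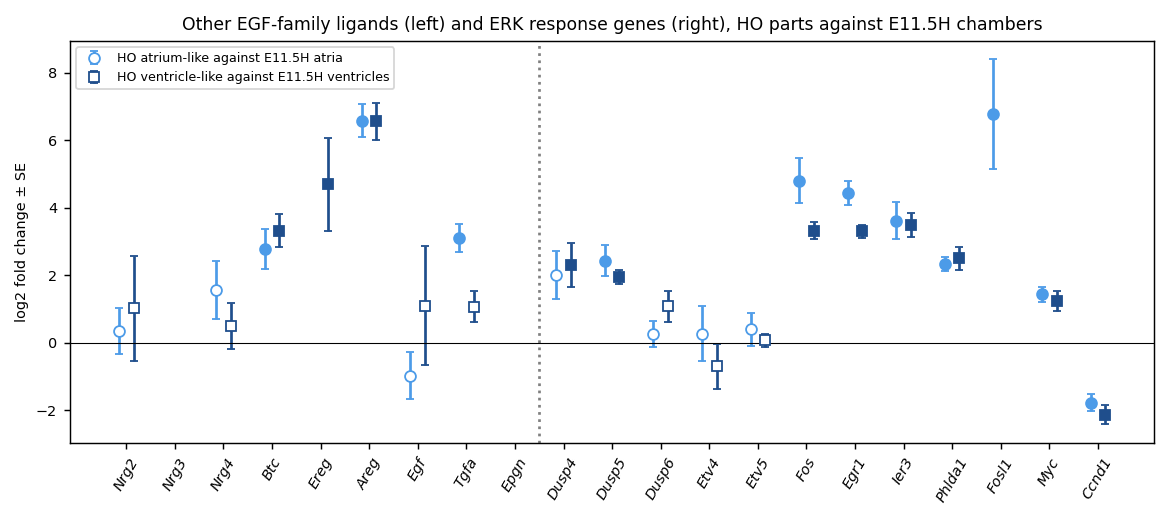
Log2 fold changes with standard errors (vertical) of other EGF-family ligands (left of the dotted line) and ERK response genes (right) in HO parts against the matching chamber of E11.5H, filled where called and open where not, with untested genes left blank. Areg is at 6.58 and 6.56, Fos at 4.80 and 3.31, and Ccnd1 is the gene called lower in both parts.

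Trabeculation genes were counted on a list of 23. In E11.5H, 6 were called, beside 4.9% of all genes. All 6 were lower in atria than in ventricles: Prdm16 (-3.29), Irx3 (-2.77), Hey2 (-1.94), Vcan (-1.51), Bmp10 (-1.50) and Has2 (-1.40), with edgeR adjusted p = 3.06e-06 to 0.0183. Bmp10 is a growth factor of trabecular muscle, and Vcan and Has2 serve the matrix between endocardium and muscle. In HOs 8 of 23 were called lower and 2 higher in atrium-like parts, and 13 lower and 1 higher in ventricle-like parts, beside 24.8% and 18.9% of all genes called in either direction. The medians of the list were -1.45 and -1.85, against 0.062 and 0.093 over all genes tested. The cardiomyocyte list had medians of -3.51 and -2.36 in the same comparisons, and the endothelial and endocardial list of -2.25 and -2.48. Their part in the values of the trabeculation genes was not tested. Nppa, a marker of trabecular and atrial muscle, fell from 1925 to 3058 FPKM in E11.5H to 0.528 to 8.75 FPKM in HOs (log2 fold changes -10.63 and -9.13, edgeR adjusted p = 0.00123 and 0.00108). Bmp10 had 218 to 646 fragments in each E11.5H library and 0 or 1 in each HO library. Gja5, a connexin of atrial and trabecular muscle, had log2 fold changes of -7.21 and -5.18 (edgeR adjusted p = 0.0171 and 0.000781). The other gene called higher in atrium-like parts was Prdm16, a transcription factor of compact muscle (3.35, edgeR adjusted p = 0.0218). The exception in both parts was Sema3e, a guidance ligand of Plxnd1, with log2 fold changes of 5.92 and 5.38 (edgeR adjusted p = 0.00543 and 0.0127).

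For each of the 6 genes, the most alike profiles were sought by Pearson's r of log2(CPM + 1) over the 12 libraries among 14595 genes with a mean of at least 1 CPM. The nearest to Hbegf were Gadd45b (r = 0.991), Plaur (r = 0.986) and Egln3 (r = 0.983), and to Erbb4 Zdhhc2 (r = 0.975), Natd1 (r = 0.968) and Rnf7 (r = 0.967). Among those nearest to Erbb3 were Sh3d19 (r = 0.963) and Patj (r = 0.955), and the nearest to Egfr were Aacs (r = 0.948), Fcgr3 (r = 0.945) and Lrp1 (r = 0.942). To Erbb2 they were Cbx2 (r = 0.980), Jpt2 (r = 0.978) and Ezh2 (r = 0.972), and to Nrg1 Gemin5 (r = 0.920), Art1 (r = 0.916) and Phc1 (r = 0.907). Libraries of a tissue share its level, so r was also taken within each tissue. For the genes nearest to Erbb2 it was 0.30 to 0.44 within the 6 E11.5H libraries and 0.82 to 0.94 within the 6 HO libraries, and for those nearest to Erbb4 it was -0.11 to 0.65 and 0.93 to 0.96.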

How the data were processed

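Libraries were grouped by the submitters' labels, with 3 replicates in each of 4 groups and all 12 used. The labels name an Illumina TruSeq kit, and the study's methods state that reads were mapped with STAR to GRCm38/mm10. Versions, annotation, counting software and strand setting are not given in the sources used here. The authors deposited expected counts, that is, unnormalized fragments per gene (74827 of 314280 values were not whole), and FPKM values. No per-sample column was left out. Counts of replicates varied beyond sampling noise in every pair, and p-values measure the spread between these samples.

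Counts were rounded. After filterByExpr (minimum count 10) and TMM scaling, edgeR 4.0.16 (R 4.3.3) gave quasi-likelihood tests with Benjamini-Hochberg adjustment, each pair of groups in a fit of its own and the interaction over all 12 libraries. Scripts were tested on simulated data. Shares of FPKM were compared by exact permutation tests (scipy 1.17.1). Sequences were read from GENCODE M21 transcripts and coordinates from the deposited table, GENCODE and RefSeq, all on GRCm38. The 6 genes were named in every library. From each pathway list, genes called between E11.5H chambers or in both HO comparisons were eligible to be named, at most the 4 largest per list and comparison, and any member of lists of up to 10 genes. Beyond that rule Ccnd1, Dusp6, Etv5, Has2, Map2k1, Mapk3, Pik3r1 and Spry1 were named after their values were seen. Some items that this rule names are not reported here. The genes and lists were chosen with earlier results of these data known. A count of 0 allows up to 0.0982 to 0.125 CPM (3 counts), for counting error only. Alternatives were other size factors, DESeq2 1.42.0, limma 3.58.1 on log2 FPKM with pseudocounts of 1 and 0.1, a minimum count of 50 or no filter, scaling to marker genes, all libraries in 1 fit, the replicate block, leaving out each library, and, chosen after seeing the data, Erbb2 and Mien1 summed or, for shares, all their fragments given to Erbb2. Figures used matplotlib 3.10.9 (Python 3.11.15).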

Additional observations from a re-analysis of the deposited data

How the results depend on the processing

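Of 575 recomputed log2 fold changes of the 6 genes, 511 kept their direction and their side of the threshold, and DESeq2 size factors, the DESeq2 Wald test, other filters and leaving out erythroid genes reversed none. The count of genes called between E11.5H chambers fell to 1 with limma on log2(FPKM + 1), where folds shrink, and to 0 with all 12 libraries in 1 fit, which takes in the spread of HOs. Over all genes, that fit called 30 between E11.5H chambers in place of 712, and the DESeq2 Wald test called 59 between HO parts and 444 in the interaction, where edgeR called 0 and 25. Leaving out 1 library gave 1 to 3 calls between E11.5H chambers, the lowest without atrial replicate 2, 0 between HO parts, 3 to 5 and 3 to 4 in the HO comparisons and 0 in the interaction. It gave 2.49 to 3.97, 4.10 to 8.52, -12.4 to -8.63, 0.628 to 1.67 and -1.15 to 3.62 percentage points for the atrial minus ventricular shares of Egfr, Erbb2, Erbb3, Erbb4 and Nrg1 in E11.5H, and -22.2 to -3.18, -21.3 to -9.58, 22.5 to 42.5, -1.66 to -0.932 and -2.03 to 0.540 points in HOs.

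Scaling to cardiomyocyte or to endothelial and endocardial genes shifted the median of all genes to between 2.55 and 3.69 in the HO comparisons, so directions below are read against that shift. Under the former, which put the median of all genes between HO parts at 1.40 and called 989 of 15703 genes there, log2 fold changes between HO parts turned to 0.41 (Nrg1), 1.26 (Hbegf), 1.37 (Egfr) and 0.77 (Erbb4), and 1 gene, Erbb3, was called. Against atria they turned to 2.77 (Nrg1), 2.31 (Erbb2) and 0.066 (Erbb4), against ventricles to 1.64 (Nrg1) and 1.01 (Erbb2), and in the interaction to 1.31 (Erbb2) and 0.15 (Erbb4). Under the latter they turned to -0.12 between HO parts (Erbb2), to 1.64 (Nrg1) and 1.82 (Erbb2) against atria, to 2.14 (Nrg1), 2.20 (Erbb2) and 1.16 (Erbb4) against ventricles, and to -0.50 in the interaction (Nrg1). With limma, uncalled values turned to -0.017 and -0.016 for Erbb2 between HO parts with pseudocounts of 1 and 0.1, to -0.35 and -0.57 for Erbb3 in ventricle-like parts, and to -0.039 for Nrg1 in the interaction (pseudocount 0.1). Erbb2 and Mien1 summed turned the interaction of Erbb2 to 0.10. Leaving out 1 library ranged from -0.46 to 0.63 (Egfr) and -0.067 to 0.42 (Erbb2) between HO parts, from -1.63 to 0.73 for Erbb3 in ventricle-like parts, and from -1.16 to 0.88 (Nrg1) and -0.30 to 0.17 (Erbb2) in the interaction. None of these reversals concerned a called value except those of Erbb2 and Erbb4 under marker scaling, which rescales all genes of a library together. For the others the cause was not tested.

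Replicate numbers are shared between groups. The study's methods state that HOs in triplicate were dissected into both parts, but no source used here ties a number to an HO, and pairs of the same number did not all deviate together (correlations of 0.007 to 0.043 between E11.5H chambers and 0.017 to 0.589 between HO parts), so they were not taken as pairs. With the replicate block, 3, 0, 4 and 4 of the 6 genes were called in the comparisons between groups and 0 in the interaction, as without it, and Egfr between HO parts and Erbb3 in ventricle-like parts turned to 0.082 and -0.82. Between HO parts, Erbb3 was higher in the atrium-like part in 3 of 3 numbers (2.54 with the block, edgeR adjusted p = 0.541), and Nrg1 and Erbb4 were lower in 3 of 3 (-0.99 and -1.01, edgeR adjusted p = 0.595 and 0.611).

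The 6 genes had at least 27 fragments in every library, so counting error bears most on the low values of Nrg1 and Erbb4 in HOs. With 3 libraries a group and wide spread in HOs, the comparison between HO parts had little power, and its 0 calls do not show that the parts were alike.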
